A study of Mus musculus with 8 samples.

Results

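The genes described here encode subunits of respiratory complexes III and IV and of ATP synthase, read on arrays of mouse striatum after RNA immunoprecipitation. They were taken from the platform annotation as every gene whose symbol starts with Uqcr, Cox4, Cox5, Cox6, Cox7, Cox8 or Atp5, together with Cyc1. This gave 42 of the 17097 genes that the array names with a single symbol. Where a gene had more than 1 probe set, the one of highest mean signal on the 8 arrays was read. Of these genes, 24 had 1 probe set and 18 had several, 67 probe sets in all. A filter on low signal, a mean above 4.23 on the log2 scale, left 11345 genes for testing and kept 40 of the 42. Cox7b2 and Uqcrfs1, the Rieske iron-sulfur protein of complex III, lay below it and have values but no test.

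Complex III passes electrons from ubiquinol to cytochrome c, and complex IV passes them from cytochrome c to oxygen, both pumping protons across the inner mitochondrial membrane. ATP synthase lets the protons flow back and uses their energy to make ATP. It joins a catalytic head and a rotating ring of c subunits through a central rotor and an outer stalk. Neurons rely on this pathway for most of their ATP, and the subunits measured here are encoded in the nucleus and imported into mitochondria.

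Striatum came from male mice, WT or HD, aged 7 to 8 months, and was pooled by genotype. The labels name 4 mice without saying whether that is the total or the number per genotype, and they do not spell out HD or name the mouse line. After formaldehyde crosslinking and preclearing with bare beads, part of each lysate was kept as input. The remainder was precipitated with antibody against CPEB1, antibody against CPEB4 or rabbit IgG. CPEB1 and CPEB4 are proteins that bind RNA at the cytoplasmic polyadenylation element and regulate poly(A) tail length and translation, and IgG measures RNA held by beads and antibody without either target. RNA was amplified over 27 cycles, and 8 µg of cDNA was labelled per array. Thus 4 fractions of WT and the same 4 of HD gave 8 arrays, 1 for each fraction of each genotype pool. A fraction's WT and HD arrays stood in for replicates when fractions were compared, so p-values measure only how unevenly fractions differed between these pools. Between WT and HD there was no replicate and no test. Because tissue was pooled, fewer cells of a type and less RNA per cell cannot be told apart.

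The arrays differed in spread. The standard deviation over the genes tested ran from 1.28 with IgG in the HD pool to 1.80 with CPEB4 in the WT pool, and the correlation of the WT with the HD array over these genes ran from 0.778 for IgG to 0.899 for CPEB4. The striatal neuron marker Pde10a read 12.20 and 11.34 in WT and HD input, and Ppp1r1b (DARPP-32) read 11.07 and 10.30. The dopamine receptor gene Drd1, at 4.53 and 4.47, lay near the low-signal floor, and Tac1 lay below it at 3.23 and 3.92.

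Within the WT pool most subunit RNAs read highest in the CPEB1 precipitate, and more had their lowest value in input than in any other fraction. Within the HD pool most read highest in input, and more were lowest with IgG than in any other fraction. In WT, 26 of the 42 genes had their highest value of the 4 fractions with CPEB1, against 22.6% of genes tested, and 21 had their lowest in input, against 21.6%. In HD, 23 had their highest in input, against 25.9% of genes tested, and 17 had their lowest with IgG, against 23.5%. Among all genes above the 75th percentile of signal, 28.2% were highest with CPEB1 and 28.7% lowest in input in WT. In HD, 26.8% of those genes were highest in input and 31.5% lowest with IgG. The median signal of the 42 genes in input, CPEB1, CPEB4 and IgG was 7.20, 8.74, 8.23 and 8.03 in WT. In HD it was 8.00, 7.79, 8.13 and 7.21, highest with CPEB4. Atp5j, which encodes coupling factor 6 in the outer stalk, shows both orders. Its log2 signal in WT was 5.62 in input, 10.42 with CPEB1, 9.59 with CPEB4 and 9.28 with IgG. In HD it was 8.86, 7.63, 8.55 and 7.69 in the same order, so that input was the lowest WT array and the highest HD array.

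**Figure D1:**
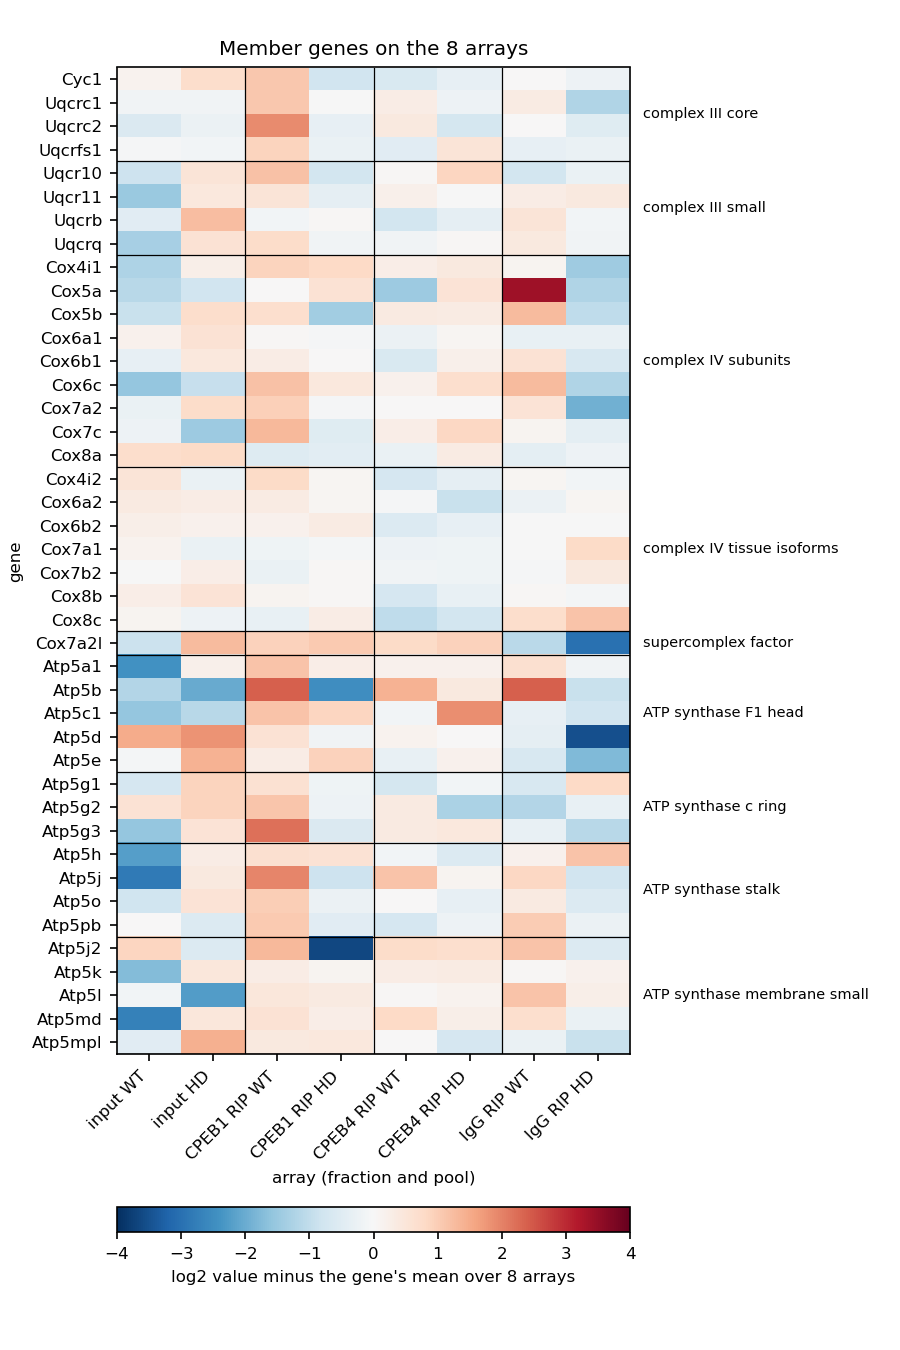
Log2 signal of each gene (rows, ordered by complex and role) on each of the 8 arrays (columns), drawn as the difference from that gene's mean over the arrays, with colour for log2 units. WT input is low for many genes, such as Atp5j at 5.62, while the 7 complex IV tissue isoforms vary little between WT and HD.

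Core and catalytic subunits differed widely in how far they followed these orders. Cyc1, the cytochrome c1 of complex III, read 6.03 in WT and 6.59 in HD input, 6.96 and 5.11 with CPEB1, 5.29 and 5.55 with CPEB4, and 5.92 and 5.68 with IgG. Its highest and lowest values were the WT and the HD array of the same CPEB1 fraction. Cox4i1, the common isoform of the largest nuclear-encoded subunit of complex IV, read 8.70 and 10.18 in WT and HD input, 10.84 and 10.72 with CPEB1, 10.21 and 10.32 with CPEB4, and 10.04 and 8.52 with IgG. The 2 antibody fractions were alike between pools, whereas input and IgG were not. Atp5a1, the alpha subunit of the ATP synthase head, read 6.82 and 9.43 in WT and HD input and between 9.10 and 10.36 on the other 6 arrays. WT input alone stood low. Atp5b, the catalytic beta subunit, read 6.10 and 5.27 in input, 9.68 and 4.80 with CPEB1, 8.66 and 7.66 with CPEB4, and 9.65 and 6.4 with IgG, so every HD value was below its WT counterpart.

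The first question of the design is which RNAs a CPEB antibody holds above IgG. Cox7a2l encodes a product that tethers complex III to complex IV in respiratory supercomplexes. Read on each gene's probe set of highest mean, it had the largest difference among these genes over IgG with both antibodies. It read 10.27 in WT and 10.42 in HD with CPEB4, 10.41 and 10.54 with CPEB1, 8.44 and 6.52 with IgG, and 8.65 and 10.77 in input. All 4 antibody arrays lay above both IgG arrays and WT input, and HD input was higher still. Its log2 difference over IgG was 2.87 ± 0.91 (SE of the limma model) with CPEB4, 7.32-fold, and 3.0 ± 0.91 with CPEB1, 8.00-fold. Neither passed the test, with limma adjusted p of 0.167 and 0.503, and both differences use the same IgG arrays. The size depended on the IgG array: without HD IgG it was 1.52 with CPEB4 and 1.64 with CPEB1, and without WT IgG it was 4.23 and 4.36. Cyclic loess scaling gave 1.61 with CPEB4.

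Cox7a2l has 2 further probe sets, and both also read higher with either antibody than with IgG in both pools. The second gave log2 differences over IgG of 0.88 in WT and 2.87 in HD with CPEB4, and 0.97 and 3.41 with CPEB1. The third gave 1.91 and 4.01 with CPEB4, and 2.30 and 4.07 with CPEB1. Against input these probe sets did not follow the first. With CPEB4 they stood above input by 3.26 and 2.39 in WT and by 2.20 and 1.30 in HD, while the probe set with the highest mean stood above by 1.62 in WT and below by 0.34 in HD. Tested each on its own in the same limma model over 16152 probe sets, an analysis added after seeing the data, the second gave 1.87 ± 0.74 over IgG with CPEB4 (adjusted p = 0.218), and the third gave 2.96 ± 0.74 with CPEB4 (adjusted p = 0.108) and 3.19 ± 0.74 with CPEB1 (adjusted p = 0.355).

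Across all the subunit genes, 0 of the 40 tested passed at a limma adjusted p under 0.05 for CPEB4 over IgG, where 2.33% of genes tested were called higher and 0.0441% lower. By unadjusted p under 0.05, 1 was higher (Cox7a2l) and 1 lower (Cox8c), against 22.9% of genes tested in either direction. For CPEB1 over IgG 0 of 40 passed in either direction, as did 0% of genes tested. By unadjusted p, 2 were higher (Cox7a2l and Atp5e) and 1 lower (Cox8c), against 7.37% of genes tested. Both pools of CPEB4 lay above both pools of IgG in 10 of the 42 genes and below in 11, against 29.3% and 37% of genes tested. With CPEB1 the counts were 11 and 3, against 24.6% and 12.5%. A 2-fold difference in both pools was found with CPEB4 for Cox7a2l above IgG and Cox8c below, against 14.3% and 0.996% of genes tested, and with CPEB1 for Cox7a2l and Atp5c1 above and no gene below, against 4.48% and 0.458%.

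The median log2 difference over the 42 genes was 0.17 for CPEB4 over IgG, with -0.11 in WT and 0.34 in HD, beside -0.07 over all genes tested. For CPEB1 over IgG it was 0.27, with 0.43 in WT and 0.11 in HD, beside 0.09. Both medians turned negative under 2 of the 3 rescalings: cyclic loess gave -0.52 with CPEB4 and -0.11 with CPEB1, and quantile normalization gave -0.62 and -0.12, while median centring gave 0.33 and 0.31. The sign for the subunit genes as a group was therefore not settled by these arrays, with either antibody. Above the 75th percentile of signal, the median over IgG with CPEB4 was 0.238 for 35 subunit genes and 0.335 for all genes. With CPEB1 it was 0.287 and 0.225.

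**Figure D2:**
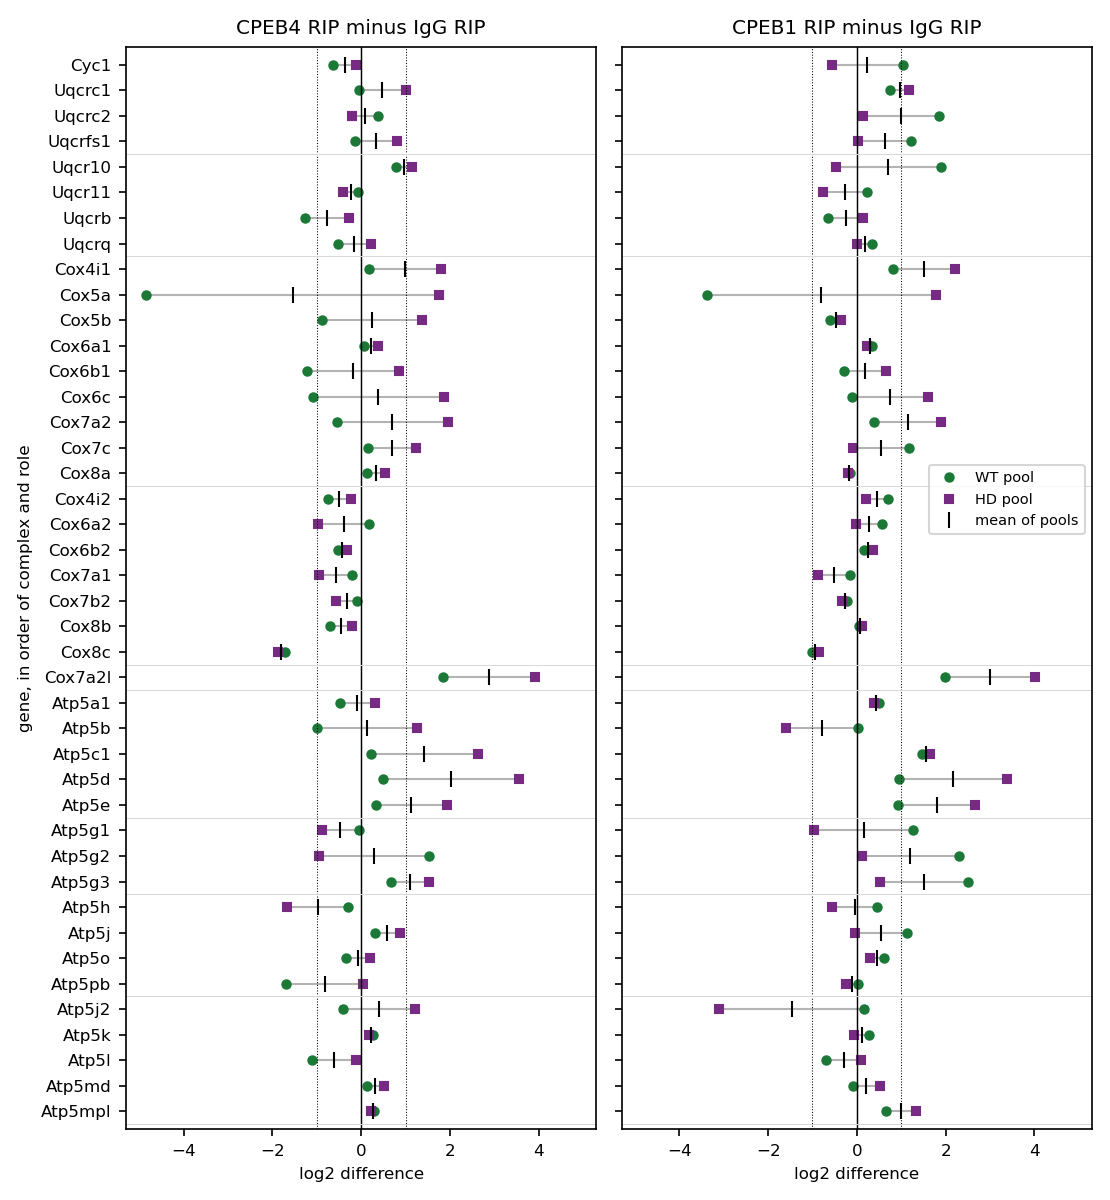
Log2 difference from IgG of each gene in the WT pool (circles) and the HD pool (squares), with the mean of both as a tick, for CPEB4 (left) and CPEB1 (right); dotted lines mark 2-fold. Cox7a2l lies beyond 2-fold above IgG in both pools of both panels, and Cox5a spans from -4.84 in WT to 1.76 in HD with CPEB4.

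The small subunits of the ATP synthase head followed Cox7a2l in size. Atp5d, the delta subunit of the central stalk, read 9.63 and 9.52 with CPEB4 in WT and HD, 10.09 and 9.36 with CPEB1, 9.14 and 5.98 with IgG, and 10.98 and 11.29 in input. Its 4 antibody values lay between input above and IgG below, without overlap. The log2 difference over IgG was 2.02 ± 0.86 with CPEB4 (limma adjusted p = 0.238) and 2.17 ± 0.86 with CPEB1 (adjusted p = 0.678), and without HD IgG it was 0.52 and 0.67. A second probe set of Atp5d gave -0.26 in WT and 1.57 in HD with CPEB4, and 0.24 and 0.13 with CPEB1, so the separation was not shared by both probe sets. Atp5e, the epsilon subunit, read 7.83 and 8.30 with CPEB4, 8.42 and 9.04 with CPEB1, 7.50 and 6.37 with IgG, and 8.03 and 9.51 in input. It stood above IgG with CPEB1 by 1.80 ± 0.62 (limma adjusted p = 0.589), or 0.81 without HD IgG, and it has 1 probe set. Atp5c1, the gamma subunit that forms the rotor shaft, read 7.05 and 9.03 with CPEB4, 8.31 and 8.03 with CPEB1, 6.84 and 6.39 with IgG, and 5.63 and 6.04 in input. Its log2 difference over IgG was 1.43 ± 0.63 with CPEB4 (limma adjusted p = 0.250) and 1.56 ± 0.63 with CPEB1 (adjusted p = 0.692), but with CPEB4 it was 0.39 without HD CPEB4 and 2.47 without WT CPEB4. A second probe set lay below IgG in WT, by -0.77 and -0.35, and above it in HD, by 0.52 and 0.41.

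At the other end stood Cox8c, known as a testis isoform of subunit VIII of complex IV. It read 5.92 and 6.21 with CPEB4 in WT and HD, 6.64 and 7.23 with CPEB1, 7.65 and 8.09 with IgG, and 7.03 and 6.73 in input. The CPEB4 values were the lowest of the 8 and the IgG values the highest, with no overlap among them. The log2 difference of CPEB4 from IgG was -1.80 ± 0.31, with a limma adjusted p of 0.0589. It passed at 0.0467 when a gene's probe sets were averaged before testing and at 0.0433 without the genotype pool in the model, and ranged over all alternatives from 0.0433 to 0.27. With CPEB1 it was -0.94 ± 0.31 (adjusted p = 0.584). Atp5h, the d subunit of the stalk, followed among the lowest with CPEB4. It read 9.94 and 9.52 with CPEB4, 10.68 and 10.64 with CPEB1, 10.23 and 11.20 with IgG, and 7.87 and 10.36 in input, and differed from IgG by -0.98 ± 0.73 (adjusted p = 0.417).

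Tissue isoforms of complex IV were low against IgG with CPEB4 as a group. These are Cox4i2, known from lung, Cox6a2, Cox7a1 and Cox8b, known from heart and skeletal muscle, and Cox6b2, Cox7b2 and Cox8c, known from testis. All 7 had a negative log2 difference of CPEB4 from IgG, from -1.80 to -0.33, also under cyclic loess, median centring and quantile normalization. Their median was -0.47, beside -0.07 over all genes tested, of which 5969 of 11345 were below 0. Cox6b2 and Cox7a1 passed the floor but lay under the 75th percentile of signal, where 3413 of 4927 genes tested were below 0. Against input the 7 lay below as well, with a median of -0.64, though median centring and cyclic loess each turned 1 of them positive. With CPEB1 4 were above IgG and 3 below, with a median of 0.08. Their signal in input was 7.77 and 7.01 for Cox4i2 in WT and HD, 8.08 and 8.01 for Cox6a2, 4.89 and 4.51 for Cox7a1, and 6.08 and 6.36 for Cox8b. It was 5.0 and 4.94 for Cox6b2, 3.54 and 3.82 for Cox7b2, and 7.03 and 6.73 for Cox8c. With CPEB1, CPEB4 and IgG in turn, each in WT and then HD, Cox6a2 read 8.04 and 7.78, 7.66 and 6.83, and 7.47 and 7.79. Cox7a1 read 4.60 and 4.67, 4.54 and 4.59, and 4.75 and 5.54. Cox8b read 5.90 and 5.85, 5.14 and 5.52, and 5.86 and 5.74. CPEB4 lay below the other fractions in both pools for Cox8b, and overlapped others for Cox6a2 and Cox7a1. Cox6b2 read 4.93 and 5.11, 4.23 and 4.43, and 4.76 and 4.75, again lowest with CPEB4. Cox7b2 read 3.29 and 3.62, 3.42 and 3.38, and 3.51 and 3.95. Cox4i2 read 7.34 and 7.15 with IgG, above both of its CPEB4 values. Of the muscle markers, Ckm, creatine kinase of muscle, read 6.15 and 5.98 in input, Actn3 read 5.12 and 4.79, and Acta1 read 4.07 and 4.11. Myh1, at 3.77 and 3.68, lay below the floor. The part of muscle RNA or of cross-hybridization in these isoform signals was not tested.

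The common counterparts of these isoforms differed in how steady they were between arrays. Cox6a1, the partner of Cox6a2, stayed between 10.48 and 11.38 on all 8 arrays, and Cox8a stayed between 10.10 and 11.40. A second Cox6a1 probe set did not stay level. It read 8.80 and 9.43 in input, 9.85 and 5.25 with CPEB1, 9.20 and 8.49 with CPEB4, and 2.95 and 6.50 with IgG, low on both IgG arrays and on the HD array of CPEB1. Cox6b1, the partner of Cox6b2, ranged from 8.28 to 9.50. Cox7a2, the partner of Cox7a1, read 8.52 and 9.52 in input, 9.73 and 8.75 with CPEB1, 8.80 and 8.81 with CPEB4, and 9.34 and 6.86 with IgG, where HD IgG alone was low.

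Cox5a, a matrix-side subunit of complex IV, gave opposite readings from its probe sets. The probe set with the highest mean read 4.65 and 4.99 in input, 5.76 and 6.34 with CPEB1, 4.31 and 6.32 with CPEB4, and 9.15 and 4.56 with IgG. The WT IgG value stood alone, and the log2 difference of CPEB4 from IgG was -4.84 in WT and 1.76 in HD. The second probe set read 4.65 and 8.47 in input, 3.73 and 2.70 with CPEB1, 6.15 and 6.24 with CPEB4, and 2.87 and 2.77 with IgG. On it CPEB4 lay above IgG by 3.28 in WT and 3.47 in HD, while CPEB1 differed from IgG by 0.86 and -0.07. The third gave 2.29 and 2.30 for CPEB4 and 0.80 and -0.07 for CPEB1. Tested on their own in limma over 16152 probe sets, the second and the third gave 3.37 ± 1.16 (adjusted p = 0.181) and 2.30 ± 1.01 (adjusted p = 0.247) for CPEB4 over IgG, and the first gave -1.54 ± 1.55 (adjusted p = 0.539).

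**Figure D3:**
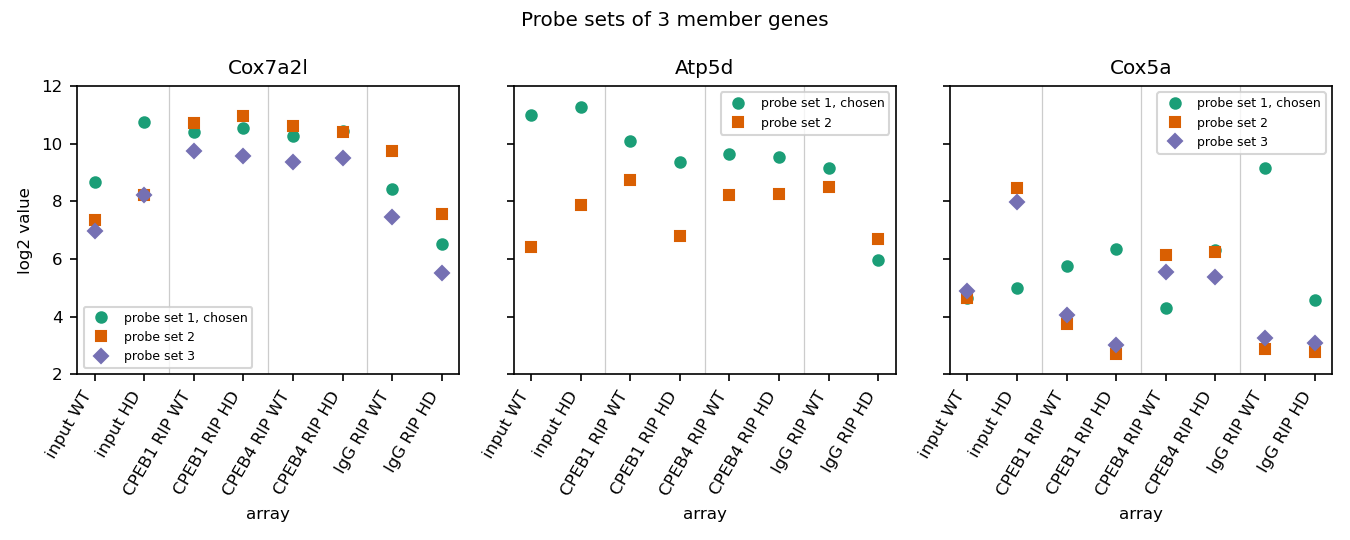
Log2 signal of each probe set (points, 1 symbol per probe set) of Cox7a2l, Atp5d and Cox5a on the 8 arrays (x axis). Each Cox7a2l probe set reads lower on both IgG arrays than on the 4 antibody arrays, and the Cox5a probe set with the highest mean peaks at 9.15 on WT IgG, where its second probe set reads 2.87.

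CPEB1 and CPEB4 were compared directly to ask whether the proteins hold different subunit RNAs. For CPEB1 against CPEB4, 0 of 40 genes passed in limma, where 0% of genes tested were called higher and 0.141% lower. By unadjusted p under 0.05, 3 were higher with CPEB1 (Cox4i2, Cox6b2 and Cox8c) and 0 lower, against 15.3% of genes tested in either direction. All of these are tissue isoforms, and each of the 7 isoforms had a positive difference, with a median of 0.67 beside 0.21 over all genes tested. Of those genes 6864 of 11345 were above 0, and 3493 of 4927 under the 75th percentile of signal. Median centring and cyclic loess turned 2 of the 7 negative and quantile normalization 1. Cox4i2 read 8.04 and 7.36 with CPEB1 and 6.59 and 6.91 with CPEB4, a difference of 0.95 ± 0.36 (adjusted p = 0.316). Among all 42 genes CPEB1 lay above CPEB4 without overlap in 13 and below in 1, against 37% and 18.6% of genes tested. At 2-fold in both pools there was 0 in either direction, against 0.74% and 7.82%.

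The lowest values for CPEB1 against CPEB4 came from the HD array of CPEB1. Atp5j2, the f subunit of ATP synthase, read 9.96 with CPEB1 in WT but 5.0 in HD, and 9.38 and 9.32 with CPEB4, 9.79 and 8.11 with IgG, and 9.50 and 8.11 in input. The difference was 0.57 in WT and -4.33 in HD, and a second probe set gave 0.04 and -2.58. Atp5b gave 1.02 and -2.86. Cox5b, a zinc-binding subunit of complex IV, read 10.18 and 8.13 with CPEB1, 9.89 and 9.85 with CPEB4, 10.78 and 8.49 with IgG, and 8.61 and 10.22 in input. Without that HD array, CPEB1 stood above CPEB4 in the mean for all of Atp5j2 (0.08), Atp5b (0.68) and Cox5b (0.19). Uqcrc2, a core protein of complex III, was among the highest for CPEB1 against CPEB4. It read 7.03 and 4.81 with CPEB1, 5.54 and 4.46 with CPEB4, 5.17 and 4.67 with IgG, and 4.56 and 4.92 in input. WT CPEB1 stood apart from the other arrays, and the groups overlapped. A second Uqcrc2 probe set went the other way, at -1.04 in WT and -0.03 in HD.

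Against input, Atp5c1 stood highest with CPEB1 and second to Atp5b with CPEB4. For CPEB4 over input 0 of 40 genes passed in limma, against 1.34% of genes tested higher and 0.0176% lower. By unadjusted p under 0.05, 1 was higher (Atp5c1) and 4 lower (Cox6b2, Cox8a, Cox8b and Cox8c), against 26.2% of genes tested in either direction. For CPEB1 over input 0 of 40 passed, against 0.0176% higher and 0% lower. By unadjusted p, 3 were higher (Atp5c1, Atp5l and Cox6c) and 1 lower (Cox8a), against 8.07%. Atp5c1 stood above input by 2.20 ± 0.63 with CPEB4 (adjusted p = 0.130) and by 2.34 ± 0.63 with CPEB1 (adjusted p = 0.399). Averaging its probe sets gave 0.95 and 1.09.

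Several other subunits were 2-fold from input in both pools. With CPEB4 these were Atp5b (2.56 in WT and 2.39 in HD), Atp5c1 and Cox6c above, and Atp5d below. With CPEB1 they were Atp5c1, Cox5a and Cox6c above, and Cox8a below. The other Cox5a probe sets went the opposite way with CPEB1, below input by -0.92 and -0.81 in WT and by -5.76 and -4.97 in HD, and the second Atp5d probe set lay above input with CPEB4, by 1.80 and 0.38. The second Cox6c probe set gave 4.348 in WT and 0.21 in HD with CPEB4, and 4.695 and -0.413 with CPEB1. The second Atp5c1 probe set gave -1.115 in WT and 0.51 in HD with CPEB4, and -0.699 and 0.404 with CPEB1. The backgrounds were 11.9% and 1.79% of genes tested with CPEB4 and 3.49% and 1.18% with CPEB1. Cox6c, a small subunit of complex IV, read 7.36 and 7.98 in input, 10.08 and 9.32 with CPEB1, 9.09 and 9.58 with CPEB4, and 10.19 and 7.71 with IgG. Both antibody fractions and WT IgG were high, and HD IgG was near input. Cox8a lay below input on every precipitate array, at 10.10 and 10.20 with CPEB1, 10.37 and 10.96 with CPEB4 and 10.25 and 10.41 with IgG against 11.34 and 11.40. Its difference with CPEB1 was -1.22 ± 0.27 (limma adjusted p = 0.287).

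The IgG precipitate itself differed from input for the same genes. For IgG over input 0 of 40 passed in limma, against 0.0176% of genes tested higher and 0.00881% lower. By unadjusted p under 0.05, 2 were higher (Atp5l and Cox8c) and 4 lower (Atp5d, Atp5e, Cox6a1 and Cox8a), against 9.75%. Atp5d stood 3.58 ± 0.86 below input (log2 difference of -3.58, adjusted p = 0.354), Cox7a2l differed by -2.23 ± 0.91 (adjusted p = 0.519) and Atp5e by -1.84 ± 0.62 (adjusted p = 0.474). In each case HD was further apart than WT, at -5.31 and -1.84 for Atp5d, -4.25 and -0.22 for Cox7a2l, and -3.14 and -0.54 for Atp5e. Thus Cox7a2l, Atp5d and Atp5e, which were among the highest over IgG with CPEB1, were also the lowest with IgG against input, and both comparisons use the same IgG arrays. Second probe sets differed in this: over both pools IgG stood above input by 0.44 on the second Atp5d probe set and by 0.86 on the second Cox7a2l probe set, and below by -1.11 on the third. Atp5l, the g subunit of ATP synthase, went the other way. It read 9.23 and 7.10 in input, 9.79 and 9.69 with CPEB1, 9.38 and 9.47 with CPEB4, and 10.48 and 9.59 with IgG, so input was below every precipitate array, and IgG stood above it by 1.87 ± 0.59 (adjusted p = 0.457). At 2-fold in both pools, IgG stood above input for Atp5b and Atp5l and below it for Atp5d and Atp5g2, against 1.67% and 3.34% of genes tested. The non-overlapping counts against input, higher and lower, were 6 and 11 with CPEB4 (25.7% and 39.1% of genes tested), 8 and 4 with CPEB1 (17.6% and 18.7%) and 4 and 11 with IgG (16.6% and 30%).

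The medians against input had opposite signs in the pools. For CPEB1 the median of the 42 genes was 1.16 in WT and -0.37 in HD, for IgG 0.61 and -0.53, and for CPEB4 0.21 and -0.36. All 3 differences share the input arrays. Among all genes tested the mean over pools had a median of -0.01, -0.11 and -0.15 in the same order. In WT and HD these genes had medians of -0.04 and 0.03 for CPEB1, -0.15 and -0.05 for IgG, and -0.17 and -0.14 for CPEB4. Above the 75th percentile of signal they were 0.19 and -0.02, -0.16 and -0.16, and 0.27 and -0.02. The 35 subunit genes of that signal had 1.284 and -0.47 for CPEB1. For IgG they had 0.825 and -0.743, and for CPEB4 0.472 and -0.342. All genes of that signal also changed sign with CPEB1 and CPEB4, but their HD medians lay near 0 and their shifts were smaller.

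The second question is how WT and HD differ within a fraction, read from 1 array of each and without a test. In input, subunit RNAs were mostly higher in HD. In the CPEB1 and IgG precipitates they were mostly lower, and with CPEB4 they were close. With CPEB1 the direction did not hold under every rescaling. In input 18 of 42 genes were 2-fold higher in HD and 3 lower, against 11.3% and 4.43% of genes tested. With CPEB1 the counts were 0 and 14, against 3.34% and 17.9%. With CPEB4 they were 2 and 4, against 4.55% and 11.6%, and with IgG 1 and 14, against 5.32% and 10%. The same counts were taken above the 75th percentile of signal, which kept 35 of the 42: 17 and 3 in input against 17.2% and 5.84%, 0 and 11 with CPEB1 against 3.69% and 26.6%, 2 and 3 with CPEB4 against 5.45% and 13.1%, and 1 and 13 with IgG against 7.03% and 15.2%.

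The median HD minus WT difference of the 42 genes was 0.49 in input, -0.70 with CPEB1, 0.10 with CPEB4 and -0.58 with IgG. Over all genes tested it was -0.08, 0.00, 0.06 and 0.05. Above the 75th percentile of signal the 35 subunit genes had medians of 0.75, -0.73, 0.09 and -0.76. All genes of that signal had -0.03, -0.21, 0.02 and 0.02. With CPEB1, 29 of those 35 were below 0, as were 3866 of the 6418 genes. In input and with IgG the sign of the 42-gene median held under every rescaling, from 0.39 to 0.59 and from -0.64 to -0.29. With CPEB1 it did not: cyclic loess gave 0.05 and quantile normalization 0.15. Of the 18 genes 2-fold higher in HD input, 14 were below 0 with CPEB1, 7 with CPEB4 and 13 with IgG, much as among all 42, where 32, 15 and 29 were below 0.

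**Figure D4:**
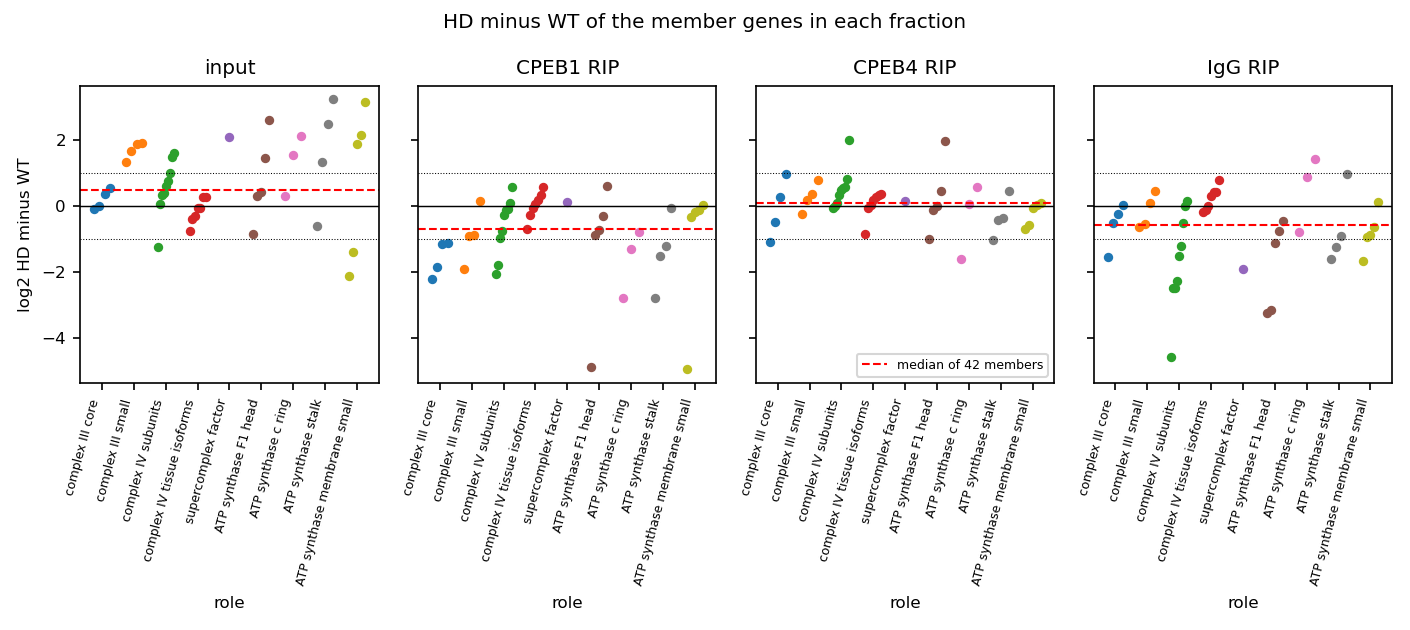
HD minus WT log2 difference of each gene (points), by role, in the 4 fractions (panels); the dashed line is the median of the 42 genes and dotted lines mark 2-fold. In input the 4 small complex III subunits, each on its probe set of highest mean, all lie between 1.34 and 1.91. The tissue isoforms stay within 2-fold in every panel.

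The genes 2-fold higher in HD input came from several roles. On the probe set of highest mean, all 4 small subunits of complex III were 2-fold higher in HD input. Uqcrq read 8.60 in WT and 10.51 in HD, Uqcr11 8.57 and 10.46, Uqcrb 4.87 and 6.55, and Uqcr10 6.89 and 8.24. This was not shared by further probe sets above the floor: those of Uqcr10 gave 0.62 and -0.32, and that of Uqcrq gave -0.74. Of the complex III core genes 0 of 4 were 2-fold apart: Uqcrc1 read 7.52 on both arrays, Uqcrc2 4.56 and 4.92, Uqcrfs1 4.0 and 3.92, and Cyc1 6.03 and 6.59. With CPEB1 all 4 core genes were 2-fold lower in HD, from -1.12 to -2.22, and all 4 stayed below 0 under each rescaling, though a second Uqcrc2 probe set gave -0.24. Of the small subunits 1 was 2-fold lower with CPEB1, Uqcr10 at -1.92, and the median was -0.89. Uqcrb read 5.21 in WT and 5.37 in HD with CPEB1, 4.58 and 4.96 with CPEB4, and 5.85 and 5.22 with IgG. Uqcrfs1 read 4.94 and 3.78 with CPEB1, 3.58 and 4.56 with CPEB4, and 3.72 and 3.75 with IgG. Uqcrb was highest in HD input, and Uqcrfs1 was highest in WT with CPEB1. Complex IV held 3 of 9 common subunits 2-fold higher and 1 lower in HD input. With IgG 6 of these 9 were 2-fold lower in HD.

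Within ATP synthase the outer stalk and the membrane subunits held the extremes. The stalk had 3 of 4 genes 2-fold higher in HD input, with Atp5j at 3.24, Atp5h at 2.49 and Atp5o, the oligomycin sensitivity protein, at 1.34, while Atp5pb was at -0.59. Among 5 small membrane subunits 3 were higher, Atp5md at 3.16, Atp5k at 2.18 and Atp5mpl at 1.89, and 2 were lower, Atp5l at -2.13 and Atp5j2 at -1.39. Atp5md, which helps ATP synthase form dimers, read 4.83 in WT input and 7.99 in HD input, and between 7.27 and 8.35 on the 6 precipitate arrays. WT input alone was low for it. In the head, Atp5a1 was higher by 2.60 and Atp5e by 1.47, and Atp5b, Atp5c1 and Atp5d were within 2-fold. Cox7a2l was higher by 2.11, and its other probe sets by 0.86 and 1.23. Cox7c, a small complex IV subunit, was lower in HD input by -1.24, reading 7.00 and 5.76 there, 8.49 and 6.71 with CPEB1, 7.48 and 8.04 with CPEB4, and 7.32 and 6.80 with IgG.

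The 3 genes of the c ring encode the same mature protein and differed in signal and in direction. Atp5g1 read 8.38 and 9.92 in input, 9.66 and 8.87 with CPEB1, 8.34 and 8.94 with CPEB4, and 8.39 and 9.83 with IgG. Atp5g2 read 8.68 and 8.99 in input, 9.22 and 7.91 with CPEB1, 8.45 and 6.85 with CPEB4, and 6.92 and 7.80 with IgG. Atp5g3 read 4.30 and 6.43 in input, 8.06 and 5.29 with CPEB1, 6.22 and 6.29 with CPEB4, and 5.56 and 4.76 with IgG. All 3 were higher in HD input and lower in HD with CPEB1. With IgG Atp5g1 and Atp5g2 were higher in HD, by 1.44 and 0.87, and Atp5g3 was lower, by -0.80. The highest fraction was the same for all 3 genes, CPEB1 in WT and input in HD, and the lowest differed.

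The 7 tissue isoforms did not share these differences. Their HD minus WT values ran from -0.77 to 0.28 in input, from -0.68 to 0.59 with CPEB1, from -0.83 to 0.38 with CPEB4 and from -0.19 to 0.79 with IgG, with 0 at 2-fold in any fraction, although quantile normalization took Cox8c to 1.20 with CPEB1. The other 35 genes ran from -2.13 to 3.24 in input, with a median of 1.0, and from -4.96 to 0.62 with CPEB1, with a median of -0.87. This split between isoforms and common subunits was not tested, and Cox7b2 among the isoforms lay below the low-signal floor.

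With CPEB1 and with IgG the largest HD minus WT differences were downward. With CPEB1 they were Atp5j2 at -4.96, Atp5b at -4.88 and Atp5j at -2.79, and the highest values were Atp5e at 0.62, Cox8c at 0.59 and Cox5a at 0.58. With IgG they were Cox5a at -4.59, Atp5b at -3.25 and Atp5d at -3.16, and the highest were Atp5g1 at 1.44, Atp5h at 0.97 and Atp5g2 at 0.87. With CPEB4 the range was narrower and reached further up than down, from Atp5g2 at -1.60, Uqcrc2 at -1.09 and Atp5j at -1.04 up to Uqcrfs1 at 0.98, Atp5c1 at 1.98 and Cox5a at 2.01. The other Cox5a probe sets did not share its values. They gave -0.096 and -0.186 with IgG, 0.09 and -0.171 with CPEB4, and -1.027 and -1.059 with CPEB1. Fewer of the 42 genes were beyond 2-fold with CPEB4 than in any other fraction, 2 higher and 4 lower, against 4.55% and 11.6% of genes tested. All genes tested were not fewest with CPEB4: the shares higher and lower were 11.3% and 4.43% in input and 5.32% and 10% with IgG.

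Further probe sets of the same gene serve as a second reading of the same arrays. In 17 genes at least 2 probe sets lay above the floor. In input all of a gene's probe sets had the same sign of HD minus WT in 13 of the 17 (12 higher in HD and 1 lower). With CPEB1 it was 11 (1 and 10), with IgG 13 (3 and 10) and with CPEB4 7 (4 and 3). In input the probe sets of Atp5h gave 2.49 and 3.81, those of Atp5k 2.18 and 1.65, those of Cox6c 0.62 and 3.83, and those of Cox5a 0.34, 3.82 and 3.10. For Atp5j2 with CPEB1 they gave -4.96 and -3.15. Thus the direction in input was mostly shared, and its size was not.

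Promoters are shown for 3 of the subunit genes highest in HD over WT input, since these stood highest together. They are the 3 largest with an entry in RefSeq (assembly GRCm38.p6) on the chromosomes used here, and not the 3 largest of all. Atp5a1, higher by 2.60 in HD input, stood above Atp5h at 2.49, and its promoter is not shown. A total of 31 of the 42 genes had an entry. Each line gives the 150 bases before the transcription start on the strand of the gene, 5′ to 3′, at chr16:84835626-84835775 for Atp5j, chr19:47090648-47090797 for Atp5md and chr11:115419920-115420069 for Atp5h, all on the minus strand. Capitals mark matches to motifs of factors known to act on respiratory genes.
Atp5j: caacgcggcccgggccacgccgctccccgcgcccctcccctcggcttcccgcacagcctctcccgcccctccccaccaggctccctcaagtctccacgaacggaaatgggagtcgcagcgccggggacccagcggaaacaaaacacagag
Atp5md: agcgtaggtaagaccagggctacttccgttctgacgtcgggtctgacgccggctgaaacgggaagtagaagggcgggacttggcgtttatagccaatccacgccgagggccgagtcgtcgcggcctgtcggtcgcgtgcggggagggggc
Atp5h: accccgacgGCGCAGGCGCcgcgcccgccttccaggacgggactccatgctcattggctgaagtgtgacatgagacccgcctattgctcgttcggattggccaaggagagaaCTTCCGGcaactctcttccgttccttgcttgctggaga
The motifs searched on both strands were GCGCA followed by any base and GCGC for NRF1, CCGGAAG for ETS factors such as GABPA, and AAGATGGCG for YY1. In the Atp5h window an NRF1 match begins at -141 and an ETS match, in reverse, at -38 from the start, and the Atp5j and Atp5md windows hold no match. Windows of this length held the NRF1 motif in 4 of 31 subunit genes and in 3.22% of 27025 promoters, and the ETS motif in 5 of 31 and 5.68%. The YY1 motif was in 0 of 31 and 0.381%. These letters describe the windows and say nothing of binding, and RNA on these arrays does not measure transcription.

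Markers of several cell types also differed between WT and HD arrays. Of 4 choroid plexus and ependyma markers, Ttr (transthyretin) read 6.60 in WT and 10.49 in HD input and was higher in HD in every precipitate, by 1.36 to 2.11, while Folr1, Kl and Foxj1 were within 0.25 of WT in input; the list median was 4.95 and 4.94. Among 4 astrocyte markers Gfap was higher in HD input by 2.48 and Aldh1l1 lower by -1.16, with a list median of 5.46 and 4.69. For 8 medium spiny neuron markers the median signal in WT and HD was 7.76 and 6.68 in input, 9.38 and 6.53 with CPEB1, 8.78 and 6.99 with CPEB4, and 9.35 and 6.24 with IgG. Of the 7 tested, 2 were 2-fold lower and 1 higher in HD input, 4 lower with CPEB1, 4 with CPEB4 and 5 with IgG. Among all genes tested 4.43% were lower and 11.3% higher in HD input, 17.9% lower with CPEB1, 11.6% with CPEB4 and 10% with IgG. The oligodendrocyte gene Mobp read 9.14 with WT IgG and 5.19 with HD IgG. The part of these shifts in the subunit differences was not tested.

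Other genes of the pathway were read from lists of assembly factors, neighbouring complexes and regulators. In all 6 comparisons between fractions, 0 genes of these lists passed in limma: 4 of complex II, 2 of cytochrome c, 14 tested assembly factors of complex IV, 5 of complex III, 3 assembly or inhibitor genes of ATP synthase, and 8 regulators of mitochondrial genes. Nearest to the threshold for CPEB4 over IgG were Ppargc1b, a coactivator of mitochondrial genes, at 3.01 (adjusted p = 0.0675), Esrra, an orphan nuclear receptor, at 1.70 (adjusted p = 0.0789), and Coa5, a complex IV assembly factor, at 2.19 (adjusted p = 0.0835). With CPEB1 Coa5 stood above IgG by 2.76 (adjusted p = 0.200). Surf1, another complex IV assembly factor, stood above IgG by 2.32 with CPEB4 and 1.90 with CPEB1. Of the 6 genes encoded in mitochondria that were looked for, 0 had a probe set under a single symbol, and Uqcrh and Cox7b were not analysed here for the same reason.

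In HD minus WT of input, assembly factors of complex IV were 2-fold higher in 7 of 14 and lower in 0. The largest were Cox19 at 3.69, Surf1 at 3.21 and Cox16 at 2.96, while Pet100 lay just short of 2-fold lower at -0.999. Of genes tested, 11.3% were 2-fold higher and 4.43% lower, or 17.2% and 5.84% above the 75th percentile of signal. Complex II had 3 of 4 genes higher, with Sdhc at 3.36, and Sdhd lower at -1.12. Cycs, somatic cytochrome c, was higher by 2.59, reading 6.05 in WT and 8.64 in HD input. Of complex III assembly factors, Uqcc2 was higher by 3.63 and Bcs1l lower by -3.42. The ATP synthase inhibitor gene Atpif1 was higher by 1.49. Of the 8 regulators tested, 0 were 2-fold apart in either direction, with Nrf1 at -0.44 and Tfam, the mitochondrial transcription factor A, at -0.87.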

How the data were processed

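Input RNA and RNA precipitated with CPEB1, CPEB4 or IgG from WT and HD striatal pools were hybridized to 8 Affymetrix arrays, 1 per fraction and pool. The deposited values are log2 probe set signals made by the authors with RMA (robust multi-array average), as the submitters' processing notes state, with no version; joint processing of the 8 arrays is not stated. They were used without further scaling.

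Of 45101 probe sets, 28898 had 1 symbol, 551 several and 15652 none in the platform annotation. Of those with 1 symbol, 28689 matched RefSeq (GRCm38.p6) by Entrez gene ID. The brightest single-symbol probe set on average was read for each of 17097 genes. The 11345 genes with a mean above 4.23, the median over all probe sets, were tested with limma 3.58.1 in R 4.3.3 (two-sided, Benjamini-Hochberg adjusted over all genes tested). The model held fraction and genotype pool, with 3 residual and 2.29 prior degrees of freedom. It was tested on simulated data. For HD minus WT, genes were counted at 2-fold. The number of arrays limits the precision.

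Values on the 8 arrays, each or as a range, are given for the 3 highest and 3 lowest genes of each comparison, key subunits, the c ring and the tissue isoforms. The members and lists were chosen with earlier results of these data known. Alternatives were no filter, a 75th percentile filter, averaged probe sets, cyclic loess, median centring, quantile normalization, no pool term, trended robust eBayes, only the fractions compared, leaving out each array, and thresholds of 1.5-fold and 3-fold. Testing every probe set was added after seeing the data.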

Additional observations from a re-analysis of the deposited data

Results flagged for a closer look

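In 17 cases the WT and the HD pool each differed by at least 2-fold, in opposite directions, in the same comparison of fractions. Each rests on 1 array per fraction and pool, and the difference between the pools was not tested. The share of all genes with such 2-fold reversals was not counted. Opposite signs of any size occurred for CPEB1 over input in 25 of the 42 genes and in 5800 of 11345 genes tested. For IgG over input it was 23 and 4681, and for CPEB1 against CPEB4 22 and 3212. Over IgG it was 16 and 2749 with CPEB4, and 18 and 4837 with CPEB1. Values below are log2 differences in WT and then in HD.

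For CPEB4 over IgG the 2-fold cases were Cox5a, at -4.84 and 1.76, and Cox6c, at -1.10 and 1.87. For CPEB1 over IgG Cox5a gave -3.39 and 1.78. The other 2 Cox5a probe sets did not show this reversal with CPEB4, and neither did the second Cox6c probe set, at 0.18 and 1.85. For CPEB1 against CPEB4 the genes were Atp5b, at 1.02 and -2.86, Atp5g3, at 1.84 and -1.01, Cox7c, at 1.01 and -1.32, and Uqcr10, at 1.11 and -1.61. Further Uqcr10 probe sets gave 0.46 and -0.12, and 0.02 and 0.77.

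Against input, CPEB1 gave 1.28 and -1.06 for Atp5g1, 3.76 and -1.14 for Atp5g3, and 4.80 and -1.23 for Atp5j. It gave 1.56 and -2.09 for Cox5b, and 2.01 and -1.25 for Uqcr10. IgG over input gave 1.25 and -1.67 for Atp5g3, 3.66 and -1.17 for Atp5j, and 1.14 and -1.09 for Atp5o. It gave 1.34 and -1.66 for Cox4i1, and 2.16 and -1.73 for Cox5b. Second probe sets gave 0.05 and -4.04 for Atp5o and -2.22 and -3.78 for Cox5b with IgG. With CPEB1 the second Cox5b probe set gave -0.02 and -4.92. No further probe set of Atp5o, Cox5b or Uqcr10 repeated the 2-fold reversal against input. In all 14 cases that do not involve Cox5a or Cox6c, WT was positive and HD negative, and these comparisons share arrays. In the comparisons with input, WT input was below HD input for every gene.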

How the results depend on the processing

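Each comparison of fractions rests on 1 array per pool, and the arrays' number and signal over background limit what can be separated. Among values of single genes under an alternative, 678 kept their direction and side of the threshold, 13 reversed, 13 crossed 2-fold and 2 newly passed. The cause was not tested. For CPEB4 over IgG 1 subunit gene was called (Cox8c, -1.80) with averaged probe sets (limma adjusted p = 0.0467) and with no replicate block for the genotype pool (adjusted p = 0.0433), and 0 otherwise. The block changed no other call among the subunit genes. Over all genes tested, those called higher for CPEB4 over IgG were 264 with the block and 341 without it. The median of the 42 genes became, for CPEB4 over IgG, -0.519 with cyclic loess, -0.624 with quantile normalization and -0.237 to 0.359 without 1 array. For CPEB1 over IgG it became -0.111, -0.116 and -0.142 to 0.844. For CPEB4 over input cyclic loess gave -0.284 and leaving out arrays -0.546 to 0.780. Leaving out arrays gave 0.066 to 0.669 for CPEB1 against CPEB4, -0.337 to 0.993 for CPEB1 over input and -0.558 to 0.544 for IgG over input.

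Averaging probe sets turned Cox5a to 1.376 for CPEB4 over IgG and to -1.654 for IgG over input. Leaving out 1 array at a time turned the sign of these genes. Cox5a ran from -4.323 to 1.242 for CPEB4 over IgG (above 0 without WT IgG, and 0.078 without WT CPEB4), from -3.585 to 1.980 for CPEB1 over IgG, and from -0.750 to 4.816 for IgG over input. For CPEB1, Atp5j2 ran from -3.432 to 0.487 over IgG, from -3.836 to 0.083 against CPEB4 and from -3.291 to 0.628 over input. Against CPEB4, Atp5b ran from -2.512 to 0.676 (0.075 without HD CPEB4) and Cox5b from -1.623 to 0.188. Atp5j ran from -0.694 to 4.354 for CPEB4 over input.

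For HD minus WT, a threshold of 1.5-fold gave 6 genes lower in input, 2 higher and 22 lower with CPEB1, 7 higher with CPEB4 and 4 higher with IgG. A threshold of 3-fold gave 1 lower in input, 9 lower with CPEB1, 1 lower with CPEB4, and 0 higher and 9 lower with IgG. Cyclic loess gave 5 higher with CPEB1, 2 lower with CPEB4 and 6 higher with IgG. Quantile normalization gave 3 higher and 9 lower with CPEB1, 4 higher and 1 lower with CPEB4, and 3 higher with IgG. Averaged probe sets gave 1 higher with CPEB4.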
